A study of Mus musculus with 18 samples.

Results

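Epididymal white fat, a visceral fat depot, was compared between mice on a rotating shiftwork light schedule and control mice at ZT3, a zeitgeber time 3 h into the light phase of the regular cycle. The comparison holds 6 of the 18 libraries of the series, 3 shiftwork and 3 control, chosen by their labels for depot, schedule and time. All mice were C57BL/6. For 24 weeks the control mice had light and dark phases of 12 h each. The shiftwork mice kept to this cycle on 4 days a week and had the phases swapped on the other 3 days. The 6 libraries of the same depot at ZT12, 3 of each schedule, entered the same fit and are set beside the ZT3 values. Age, the day of the week at sampling and whether the 3 samples of a group came from separate animals are not given in the labels used here, so the tests measure the spread between these samples.

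The mammalian clock is a transcriptional loop. BMAL1 (gene Arntl) with CLOCK or NPAS2 binds E-boxes and drives the Period and Cryptochrome genes, whose proteins inhibit it. The same pair drives the REV-ERB genes Nr1d1 and Nr1d2, which repress Arntl, and the PAR bZIP factors Dbp, Tef and Hlf, which compete with the repressor NFIL3 at D-boxes. Fat runs this clock, and genes of lipid synthesis, immediate early genes and immune genes vary over the day in it. In bulk tissue, fewer cells of a type and less RNA per cell cannot be told apart.

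Promoter windows of 4 genes are shown because each carries a motif of a gene group described below. They are the 250 bases before a RefSeq start site in GRCm38.p6, written 5′ to 3′ on the gene's strand, with motif matches in capitals.
Tef (chr15:81811164-81811413, plus strand, the E-box CACGTG): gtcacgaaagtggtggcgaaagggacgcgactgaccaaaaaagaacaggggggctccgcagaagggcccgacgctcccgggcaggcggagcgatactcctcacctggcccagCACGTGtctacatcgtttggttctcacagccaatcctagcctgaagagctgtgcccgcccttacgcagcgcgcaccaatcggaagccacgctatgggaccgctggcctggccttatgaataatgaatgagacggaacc
Per3 (chr4:151044666-151044915, minus strand, the D-box TTANGTAA): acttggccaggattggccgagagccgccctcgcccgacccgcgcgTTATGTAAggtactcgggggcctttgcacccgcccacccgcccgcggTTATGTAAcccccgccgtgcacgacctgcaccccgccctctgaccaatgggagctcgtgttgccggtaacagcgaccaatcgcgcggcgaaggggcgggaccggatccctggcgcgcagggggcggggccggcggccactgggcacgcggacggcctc
Egr2 (chr10:67537316-67537565, plus strand, the CArG box bound by SRF): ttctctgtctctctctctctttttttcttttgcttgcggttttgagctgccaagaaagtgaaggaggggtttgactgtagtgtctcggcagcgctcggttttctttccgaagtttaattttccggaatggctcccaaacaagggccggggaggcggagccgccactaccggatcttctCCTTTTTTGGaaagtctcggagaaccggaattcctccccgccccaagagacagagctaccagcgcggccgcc
Hmgcs1 (chr13:119690101-119690350, plus strand, the sterol element TCACNCCAC): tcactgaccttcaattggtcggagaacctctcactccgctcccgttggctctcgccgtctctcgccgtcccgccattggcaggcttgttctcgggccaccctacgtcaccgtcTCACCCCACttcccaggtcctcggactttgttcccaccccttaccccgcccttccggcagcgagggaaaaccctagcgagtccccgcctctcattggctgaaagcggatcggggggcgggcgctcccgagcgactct
Both strands were searched in 32851 promoter windows of this length, some genes having several. The E-box was in 6.02% of them, the D-box in 2.06%, the CArG box in 1.47% and the sterol element in 1.05%. A gene was counted if any of its windows matched, so counts of genes and shares of windows are not on the same basis. Among 8 clock repressors with a sequence, the E-box was in 4 (Per1, Cry1, Ciart and Bhlhe41) and the D-box in Per3. The E-box was also in 6 of 21 immediate early genes, 3 of 15 cholesterol synthesis genes, 2 of 8 clock output genes and 1 of 4 D-box factors. It was in 0 of 5 clock activators and 0 of 17 interferon-stimulated genes. The CArG box was in 2 of 21 immediate early genes (Egr2 and Zfp36), and 4 windows of Egr2 carried it, of which 1 is shown. The sterol element was in 1 of 15 cholesterol synthesis genes (Hmgcs1). A further motif, the interferon-stimulated response element, was in 9 of 17 interferon-stimulated genes and in 2.98% of all windows. A match is a description of the letters only.

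The ZT3 libraries held 20352008 to 72276733 assigned reads, the deepest being control replicate 1 (the next held 22513786). A gene with 3 reads stood at 0.0375 CPM in that library and at 0.131 to 0.146 CPM in the other 5. CPM is the count scaled to library size after TMM scaling, and all levels below are CPM in replicate order 1, 2 and 3. Differences are log2 shiftwork minus control with the standard error (SE) of the edgeR fit. All 22 adipocyte genes stood above 1 CPM in all 6 libraries, which shows that fat RNA was present but not how much of each library it made up. Their sum ranged from 24995 CPM in shiftwork replicate 3 to 77700 CPM in shiftwork replicate 2. Libraries were no copies of each other (lowest chi-square per gene 24.6, where 2 draws from 1 library would give about 1).

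Transcripts of tissues that lie beside this fat pad set 3 libraries apart. Akr1b7 (chromosome 6, 34412362 to 34423137, plus strand), an aldo-keto reductase that is a major protein of vas deferens secretion, measured 9039, 8.47 and 9325 CPM in the control libraries. It stood at 2.80, 1.70 and 1.18 CPM in the shiftwork libraries. Crisp1 (chromosome 17, 40293758 to 40319207, minus strand), a cysteine-rich protein secreted onto sperm, measured 2333, 2.82 and 2664 CPM against 1.04, 0.292 and 0.481 CPM. Control replicates 1 and 3 therefore carried both genes at a level that no other library approached. The 18 vas deferens and epididymis markers summed to 11493, 16 and 12085 CPM in controls and to 5.70, 2.72 and 142 CPM in shiftwork. Prm2 (chromosome 16, 10791377 to 10792105, minus strand), a protamine that packs sperm DNA, stood at 1.33, 8.67 and 0.244 CPM in controls and at 0.475, 1.12 and 1232 CPM in shiftwork. The 16 spermatid markers summed to 66.2, 107 and 54.8 CPM against 54.8, 62.5 and 8574 CPM. Shiftwork replicate 3 was the library with spermatid transcripts, and control replicate 2 had 14 of the 16 markers above 1 CPM at low levels.

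Other marker sums moved with the same libraries. The 12 smooth muscle genes summed to 14897, 857 and 10900 CPM in controls and to 856, 748 and 1157 CPM in shiftwork. The 16 epithelial genes summed to 487, 31.5 and 551 CPM against 16.9, 9.91 and 311 CPM. Of the genes tested, 2024 stood more than 2-fold above each of the other 5 libraries in shiftwork replicate 3, against 2 to 54 in each other library. Spearman's rank correlation of shiftwork replicate 3 with the others was 0.771 to 0.797, and that of the other pairs was 0.937 to 0.992. Because of these values most lists of genes below are also given without control replicates 1 and 3 and shiftwork replicate 3, a fit that compares control replicate 2 alone with shiftwork replicates 1 and 2 and assumes that the lone control varies like the other groups.

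**Figure D1:**
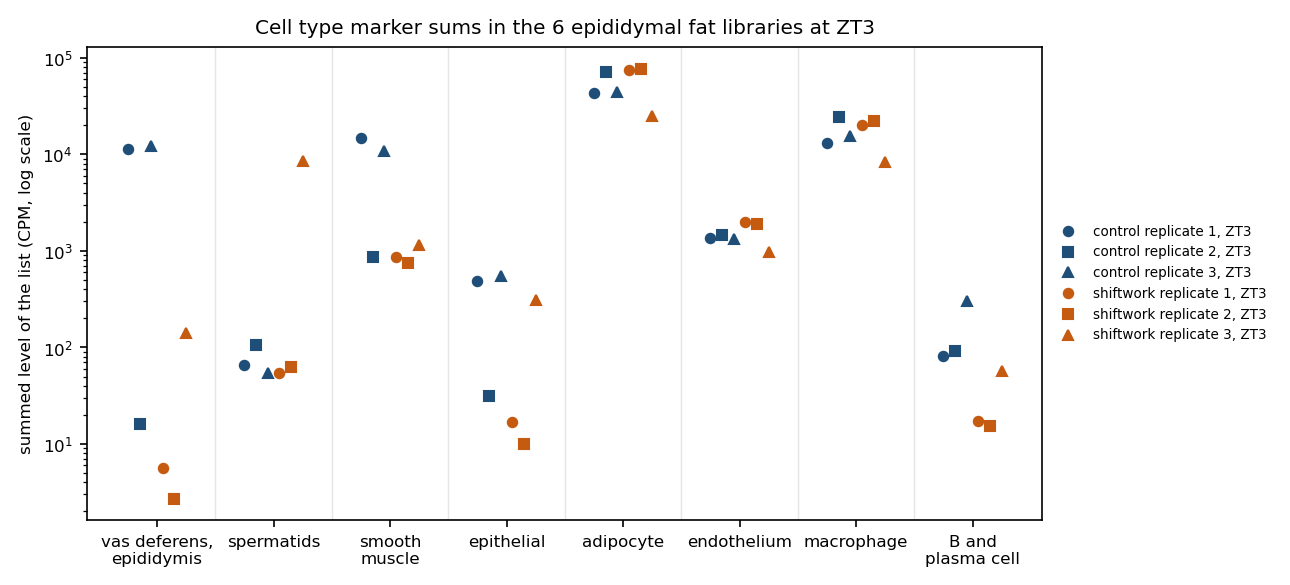
Summed level in CPM (log axis) of 8 cell type marker lists, with 1 point for each ZT3 library, controls in blue and shiftwork in orange. Control replicates 1 and 3 lie at 11493 and 12085 CPM in the vas deferens and epididymis list and shiftwork replicate 3 at 8574 CPM in the spermatid list, while the B and plasma cell sums of shiftwork all lie below those of the controls.

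No gene passed edgeR's quasi-likelihood test at ZT3 after Benjamini-Hochberg adjustment (0 of 15141, or 0.0%, smallest adjusted p = 0.166). At an unadjusted p under 0.05 there were 2847 genes, 1931 higher (12.8%) and 916 lower (6.05%). DESeq2 called 662 of 15181 genes, 248 higher (1.63%) and 414 lower (2.73%), and limma on the deposited log2 FPKM called 0. Without control replicate 2, the only ZT3 controls left are replicates 1 and 3, which carried vas deferens transcripts. In that fit the edgeR count was 403, with 47 genes higher and 356 lower. It was 3 without control replicate 1 (Egr1, Fosl2 and Ier2, all lower), and 1 without shiftwork replicate 3 (Tspan4, higher). Without the 3 libraries named above it was 9 of 15474 (0.0582%), namely Angptl2, Dbp, Per3, Tef and Vsir higher and Arc, Arhgef37, Egr1 and Zfp36 lower. The fitted difference was above 0 for 56.9% of genes and below 0 for 43.1%. All 3 shiftwork libraries stood above all 3 control libraries, which is called no overlap below, in 7.64% of genes, and below them in 4.33%. For a single gene, 3 against 3 libraries cannot give an exact permutation p under 0.1. Of the genes discussed below, Egr1, Jun, Junb, Arc, Zfp36, Kit, Mcpt4, Hmgcs1, Hsd17b7, Angptl2, Arhgef37, Vsir, Fos, Fasn, Adipoq and Gclm were chosen after their values were seen, and the others follow the rule for named genes.

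The core activators Arntl and Clock stood lower in all 3 shiftwork libraries than in any control. Arntl (chromosome 7, 113207465 to 113314126, plus strand) stood at 23.3, 52.4 and 20.3 CPM in controls and at 4.84, 16 and 9.89 CPM in shiftwork. Control replicate 2 was the highest library, and the difference was -1.64 ± 0.45 (SE, n = 3 per group, adjusted p = 0.198, edgeR). At ZT12 Arntl ranged from 4.56 to 5.58 CPM in controls and from 6.99 to 9.15 CPM in shiftwork. Clock, the partner of BMAL1, stood at 154, 220 and 206 CPM against 136, 150 and 97.0 CPM, again without overlap (-0.60 ± 0.18, adjusted p = 0.207). Npas2, which can replace CLOCK, stood at 2.96, 10.03 and 3.32 CPM against 0.237, 1.02 and 4.55 CPM. It was lower in shiftwork replicates 1 and 2, and shiftwork replicate 3 lay inside the control range (-1.48 ± 0.86, adjusted p = 0.377). Rora differed by -0.03 ± 0.22 and Arntl2 by 0.29 ± 0.25. Of 6 tested activators, 4 stood lower, 2 of them without overlap (33.3%, against 4.33% of all genes tested), and none was called by edgeR. Without the 3 libraries 4 of 6 stood lower as well (median -0.33, against -0.31).

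Of the 10 repressors, 9 stood higher in shiftwork and Bhlhe40 stood lower, with 0 called by edgeR and a median difference of 0.39 against 0.06 for all genes tested. Per3 (chromosome 4, 151003655 to 151044665, minus strand), a Period gene, stood at 70.3, 18.3 and 37.4 CPM in controls and at 138, 108 and 62.8 CPM in shiftwork. Shiftwork replicates 1 and 2 were above every control and shiftwork replicate 3 was below control replicate 1 (1.29 ± 0.42, adjusted p = 0.216). Nr1d2, which encodes REV-ERB beta, stood at 84.3, 34.9 and 70.7 CPM against 146, 104 and 92.4 CPM. It was the repressor without overlap (0.85 ± 0.29, adjusted p = 0.217). Its paralog Nr1d1 stood at 201, 138 and 203 CPM against 218, 265 and 114 CPM, with overlap in both directions (0.14 ± 0.34). Per2 stood at 24.1, 25.8 and 45.2 CPM against 59.1, 42.1 and 45.3 CPM (0.63 ± 0.29, adjusted p = 0.282). At ZT12 Per2 ranged from 79.0 to 99.2 CPM in controls and from 41.1 to 79.3 CPM in shiftwork. The remaining repressors were Per1 (0.17 ± 0.27), Cry1 (0.14 ± 0.33), Cry2 (0.37 ± 0.22), Ciart (0.68 ± 0.53), Bhlhe41 (0.42 ± 0.27) and Bhlhe40 (-0.75 ± 0.47). Per1 and Cry1 changed sign without the 3 libraries that stood apart, to -0.18 and -0.78, where the list median was 0.88 and 3 of 10 stood lower.

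Of the 4 factors that act at D-boxes, the 3 activators stood higher in shiftwork and the repressor Nfil3 stood lower. Dbp (chromosome 7, 45705247 to 45710203, plus strand) stood at 63.4, 10.6 and 31.4 CPM in controls and at 97.0, 79.4 and 51.2 CPM in shiftwork (1.10 ± 0.49, adjusted p = 0.259). Its lowest value by far was that of control replicate 2, and control replicate 1 lay above shiftwork replicate 3. Tef (chromosome 15, 81802673 to 81826863, plus strand) stood at 157, 71.1 and 124 CPM against 280, 249 and 166 CPM, without overlap (0.98 ± 0.28, adjusted p = 0.203). Hlf stood at 45, 11.8 and 28.9 CPM against 41.2, 29.2 and 33.0 CPM (0.27 ± 0.36), with both groups covering the same range apart from control replicate 2. Nfil3 (chromosome 13, 52967209 to 52981039, minus strand), the repressor at the same sites, stood at 11.5, 48.4 and 48.6 CPM against 4.70, 12.5 and 5.34 CPM. Control replicate 1 was nearer to the shiftwork libraries than to the other controls (-2.27 ± 0.55, adjusted p = 0.194). Tspan4, a tetraspanin listed among clock output genes, stood at 35.1, 35.5 and 34.3 CPM against 71.7, 63.8 and 38.5 CPM, without overlap (0.73 ± 0.18, adjusted p = 0.195). At ZT12 Tspan4 ranged from 75.7 to 80.1 CPM in controls and from 61.0 to 66.5 CPM in shiftwork.

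Control replicate 2, the control with little vas deferens RNA, held the extreme value among controls in many clock genes. It was lowest for Dbp, Per3, Tef, Hlf, Nr1d1, Nr1d2, Ciart and Bhlhe41 and highest for Arntl, Npas2 and Clock. In other genes it was not extreme, since control replicate 1 was lowest for Per1 (53.7 CPM) and Per2, control replicate 3 was lowest for Cry2 (57.9 CPM), and control replicate 3 was highest for Bhlhe40 (145 CPM) and Nfil3. Without control replicates 1 and 3 and shiftwork replicate 3 the differences of Dbp, Per3, Tef and Arntl were larger. Dbp was then 3.05 (adjusted p = 0.000611, range 0.000611 to 0.653 over 21 alternatives) and Per3 was 2.73 (adjusted p = 0.0127, range 0.0127 to 0.649). Tef was 1.88 (adjusted p = 0.0185, range 0.0185 to 0.649) and Arntl was -2.34 (adjusted p = 0.146, range 0.0172 to 0.649). In that fit the clock calls rest on 1 control library. Tspan4, whose 3 controls lay between 34.3 and 35.5 CPM, was called without shiftwork replicate 3 at 0.95 (adjusted p = 0.00842, range 0.00842 to 0.694).

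**Figure D2:**
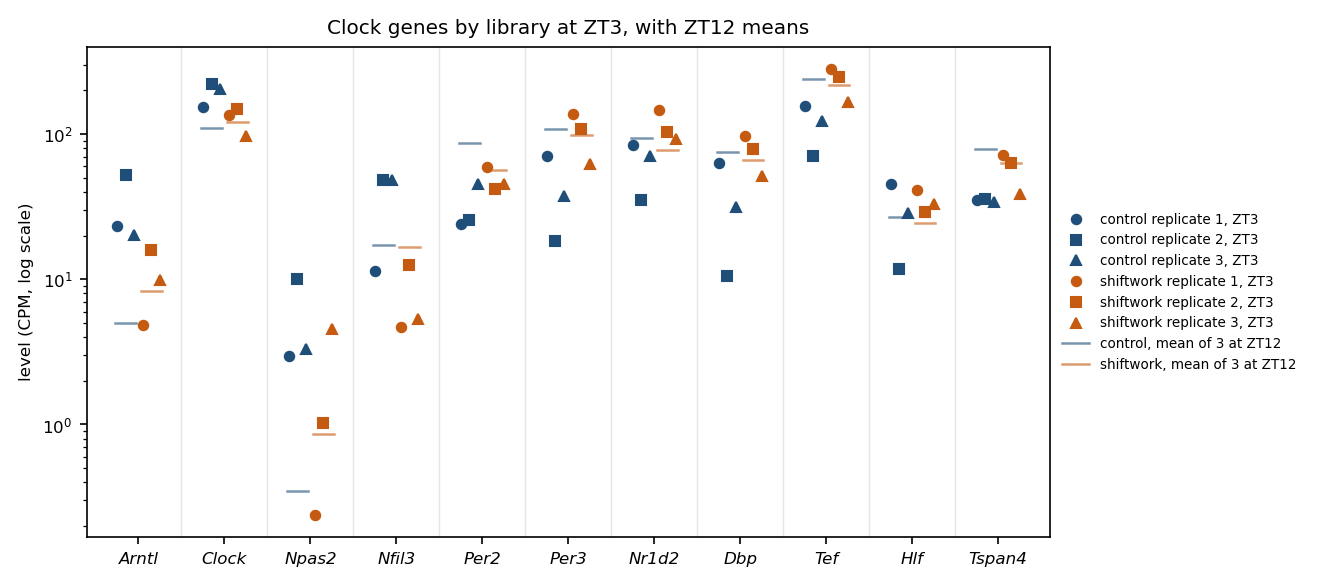
Level in CPM (log axis) of 11 clock genes in each ZT3 library (points) with the means of the 3 libraries of each schedule at ZT12 (lines). Arntl and Clock lie higher in controls and Nr1d2, Tef and Tspan4 lie higher in shiftwork, without overlap. Nfil3 overlaps, as control replicate 1 (11.5) lies below shiftwork replicate 2 (12.5), while control replicates 2 and 3 lie above every shiftwork library. Control replicate 2 (blue square) is the highest control for Arntl (52.4) and the lowest for Dbp (10.6), Per3 (18.3) and Tef (71.1).

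A set of genes was chosen for little spread within both ZT3 groups and no overlap between them. The limit on spread leaves out genes that were high in only some libraries of a group, as the markers of vas deferens and spermatids were. The rule took the 8 higher and 8 lower genes with the smallest p among genes that varied less than 2 times within each group, after 767 higher and 470 lower genes had met its filters, so that their separation is a description. Fyn (chromosome 10, 39369799 to 39565374, plus strand), a Src family kinase, stood at 28.9, 29.7 and 27.0 CPM in controls and at 43.7, 42.5 and 42.7 CPM in shiftwork (0.59 ± 0.08, adjusted p = 0.166). Its difference kept between 0.50 and 0.60 under the 21 alternatives, with adjusted p from 4.11e-09 to 0.683. Tmem86a (chromosome 7, 47050640 to 47054776, plus strand), a lysoplasmalogenase that degrades plasmalogen lipids, stood at 10.9, 7.40 and 6.79 CPM against 23.3, 20.4 and 20.9 CPM (1.36 ± 0.21, adjusted p = 0.17). Arhgap26, a GTPase activating protein, stood at 30.8, 28.1 and 29.2 CPM against 41.6, 41.2 and 43.3 CPM (0.52 ± 0.08). Pnpla7, a lysophospholipase, stood at 24.7, 23.5 and 19.9 CPM against 41.1, 36.3 and 53.3 CPM (0.94 ± 0.15). By the rule that chose these genes, all 3 shiftwork libraries, including the one with spermatid RNA, lay above all 3 controls. The others were Islr2 (1.76 ± 0.29), the exchange factor Arhgef6 (0.81 ± 0.14), the RNA helicase Mov10 (0.60 ± 0.11) and the tetraspanin Tspan6 (1.46 ± 0.26). Tspan6 was highest in shiftwork replicate 3 (61.7 CPM against 32.5 and 31.1) and was 0.72 without the 3 libraries.

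Among the lower genes, Cth (chromosome 3, 157894248 to 157925063, minus strand), cystathionine gamma-lyase of the transsulfuration pathway, stood at 23, 21.4 and 19.8 CPM in controls and at 9.74, 10.3 and 7.48 CPM in shiftwork (-1.22 ± 0.18, adjusted p = 0.166). Phlda1 (chromosome 10, 111506286 to 111508649, plus strand) stood at 22, 27.4 and 36.8 CPM against 9.36, 7.58 and 8.75 CPM (-1.75 ± 0.25). Npas4 (chromosome 19, 4984355 to 4989971, minus strand), an activity-dependent transcription factor best known from neurons, stood at 4.98, 4.82 and 6.74 CPM against 1.42, 1.12 and 1.27 CPM (-2.11 ± 0.31). The lowest control value of each of these genes was well above the highest shiftwork value. Srf, which binds CArG boxes such as the one printed for Egr2, stood at 62.6, 65.6 and 79.2 CPM against 34.8, 46.7 and 45.7 CPM (-0.71 ± 0.13). Atf4, the effector of the integrated stress response, stood at 132, 130 and 156 CPM against 78.1, 103 and 68.2 CPM (-0.75 ± 0.14). Tm7sf2 (chromosome 19, 6062821 to 6067867, minus strand), a sterol reductase of cholesterol synthesis, stood at 15.2, 14.7 and 21.5 CPM against 6.93, 7.87 and 5.12 CPM (-1.37 ± 0.25). Fam78b (-1.63 ± 0.24) and Traf5, an adaptor of TNF receptors (-0.99 ± 0.18), completed the set. Adjusted p of these 8 genes was 0.166 to 0.17, and all 8 kept their direction under all 21 alternatives. Each was called in 2 of the 21, namely by DESeq2 and by edgeR without control replicate 2. The latter fit keeps only ZT3 controls with vas deferens transcripts. All 8 were chosen for small p, small spread and no overlap in these same libraries, so these fits are no independent support.

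By p alone, without the limit on spread, 2 further higher genes were named. Peg3 (chromosome 7, 6705960 to 6730419, minus strand), an imprinted zinc finger gene expressed from the paternal copy, stood at 24.1, 15.6 and 8.59 CPM in controls and at 87.6, 112 and 107 CPM in shiftwork. Its difference was 2.66 ± 0.44 (adjusted p = 0.17) and 2.67 without the 3 libraries. At ZT12 Peg3 ranged from 74.5 to 168 CPM in controls and from 41.2 to 97.2 CPM in shiftwork, so that the ZT3 controls were the libraries at low level. Endou stood at 3.95, 3.02 and 2.15 CPM against 8.88, 6.56 and 7.79 CPM (1.34 ± 0.25). Of the 10 lower genes named in this way, 4 had one or more libraries that followed the vas deferens markers. Besides Akr1b7 and Crisp1, Acta1, an actin of muscle, stood at 123, 21.1 and 113 CPM against 8.55, 7.09 and 6.30 CPM. Gldc, of the glycine cleavage system, stood at 78.5, 8.72 and 65.2 CPM against 2.47, 3.74 and 3.24 CPM. In both genes control replicates 1 and 3 stood far above control replicate 2, as smooth muscle and vas deferens markers did. Their part in the result was not tested.

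**Figure D3:**
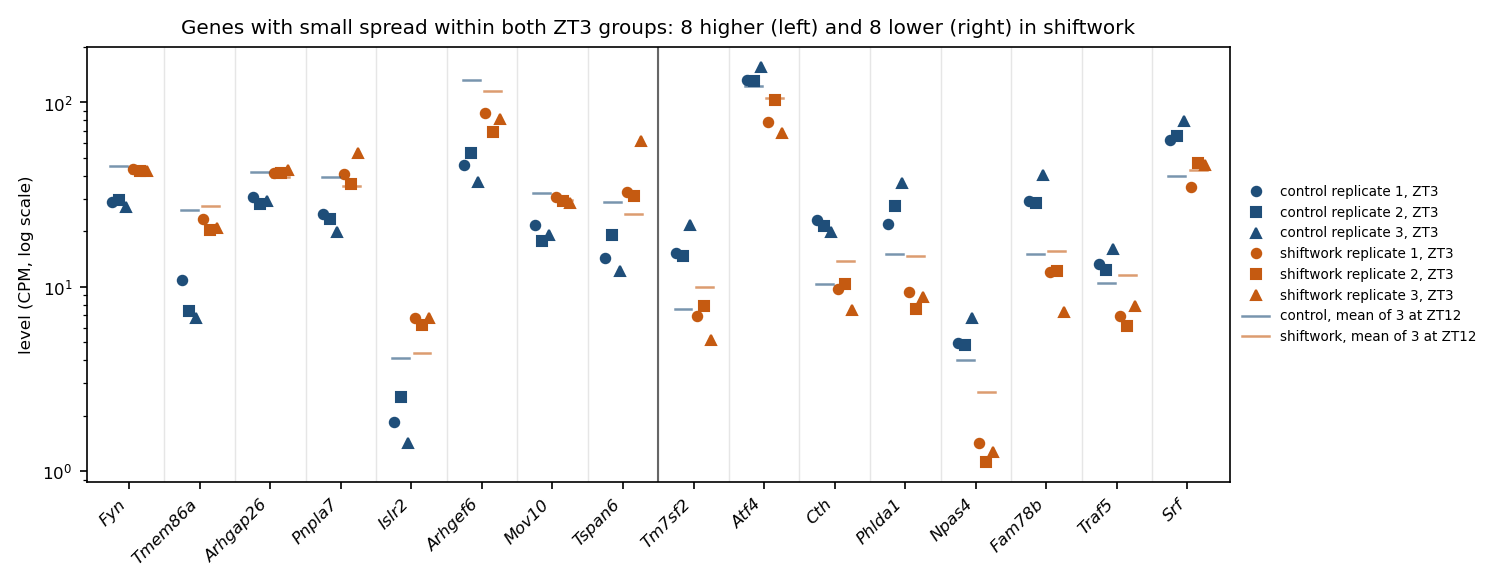
Level in CPM (log axis) of the 8 higher (left) and 8 lower (right) genes with small spread within both ZT3 groups, by library, with ZT12 means as lines. In each gene the 3 blue and the 3 orange points do not overlap, as in Fyn, whose controls lie between 27.0 and 29.7 CPM and whose shiftwork libraries lie between 42.5 and 43.7 CPM.

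Immediate early genes, which respond to stimuli within minutes to an hour, stood lower in shiftwork in 26 of 29 cases, against 43.1% of all genes. Their median difference was -0.95, and -1.24 without the 3 libraries. No overlap was seen in 6 lower genes (20.7%, against 4.33% of all genes tested) and in 1 higher gene (3.45%, against 7.64%). An unadjusted p under 0.05 was reached by 13 lower genes, against 6.05% of all genes tested, and 0 of the list were called by edgeR. The list summed to 925, 2127 and 1986 CPM in controls against 934, 959 and 934 CPM in shiftwork. Control replicates 2 and 3 were thus high, and control replicate 1 lay at the level of the shiftwork libraries. Control replicate 1 was above every shiftwork library in 8 of the 29 genes, control replicate 2 in 20 and control replicate 3 in 22, against 18.1%, 18.8% and 23.8% of all genes tested. Egr1, a zinc finger factor induced by growth signals, stood at 33.9, 454 and 409 CPM in controls and at 37.3, 33.1 and 25.2 CPM in shiftwork (-3.23 ± 0.74, adjusted p = 0.193). Without the 3 libraries Egr1 was -3.70 (adjusted p = 0.0127, range 0.000238 to 0.649 over the alternatives). Its ZT12 levels were 18.1 to 33.5 CPM in controls and 25 to 39.2 CPM in shiftwork. The high values of Egr1 were thus those of 2 ZT3 control libraries.

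Egr2 (chromosome 10, 67537869 to 67542188, plus strand), whose promoter is printed above, stood at 15.8, 46.9 and 60.6 CPM in controls and at 4.99, 2.28 and 6.61 CPM in shiftwork. It did not overlap between groups (-3.15 ± 0.63, adjusted p = 0.17). Ier2 stood at 15.3, 40.2 and 48.1 CPM against 10.5, 13.6 and 9.59 CPM (-1.62 ± 0.36, adjusted p = 0.189), and Fosl2, a Fos family member, at 65.1, 171 and 182 CPM against 48.8, 61.0 and 40.6 CPM (-1.48 ± 0.34, adjusted p = 0.193). Junb stood at 23.2, 50.9 and 63.5 CPM against 14.8, 13.8 and 20.1 CPM (-1.50 ± 0.40). These genes kept control replicate 1 above the shiftwork libraries, by a smaller margin than the other controls. Fos stood at 5.71, 48.8 and 22.9 CPM against 7.50, 4.47 and 8.18 CPM, with control replicate 1 inside the shiftwork range. Jun, the partner of Fos proteins, went the other way at 47.3, 39.5 and 41.5 CPM against 61.8, 67.3 and 55.4 CPM, without overlap (0.52 ± 0.12, adjusted p = 0.194). Arc, a capsid-like protein gene, stood at 1.10, 24.5 and 14.1 CPM against 0.807, 1.12 and 85.1 CPM, so that its sign rests on shiftwork replicate 3, the library with spermatid RNA. Its difference was 1.14 ± 1.47 in all libraries and -4.68 without the 3 libraries (adjusted p = 0.00224, range 0.00224 to 0.972). Zfp36, which encodes an mRNA decay factor, stood at 60.5, 181 and 139 CPM against 67.6, 75.0 and 46.7 CPM. It was -1.36 without the 3 libraries (adjusted p = 0.0127, range 0.0127 to 0.649).

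Single genes of other lists had high values in the same 2 controls, while their lists were mixed. Of 22 inflammatory cytokines and chemokines, 13 stood lower and 9 higher (median -0.16, or -0.14 with 14 lower without the 3 libraries). Of 17 glucocorticoid-responsive genes, 10 stood lower and 7 higher (median -0.01, or -0.01 with 9 lower without them). The monocyte chemokine Ccl2 stood at 7.44, 55.9 and 61.1 CPM in controls and at 7.03, 8.55 and 6.92 CPM in shiftwork (-2.46 ± 0.71, adjusted p = 0.207). The related Ccl7 stood at 7.01, 50.5 and 57.7 CPM against 7.22, 9.33 and 7.18 CPM (-2.28 ± 0.67, adjusted p = 0.207). In both chemokines control replicate 1 lay at the level of shiftwork. The cell cycle inhibitor Cdkn1a stood at 63.7, 230 and 217 CPM against 45.2, 75.4 and 34.1 CPM (-1.72 ± 0.47), and Errfi1, an inhibitor of the EGF receptor, at 59.1, 217 and 327 CPM against 42.1, 36.9 and 67.5 CPM (-2.04 ± 0.56). Ccl11, the eosinophil chemokine eotaxin, stood at 31.7, 62.5 and 28.7 CPM against 108, 115 and 35.3 CPM (1.08 ± 0.41, adjusted p = 0.22). It was high in shiftwork replicates 1 and 2, whereas shiftwork replicate 3 lay among the controls.

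Cholesterol synthesis genes stood lower in shiftwork in 19 of 20 cases, with a median difference of -0.87, and in 20 of 20 with -1.13 without the 3 libraries. No overlap was seen in 3 of them, Tm7sf2, Msmo1 and Hsd17b7 (15%, against 4.33% of all genes tested). There were 8 at an unadjusted p under 0.05, against 6.05% of all genes tested lower at that p, and 0 called by edgeR. The list summed to 1169, 2893 and 2236 CPM in controls and to 1266, 1643 and 998 CPM in shiftwork, so control replicate 1 again lay inside the shiftwork range. Control replicate 1 was above every shiftwork library in 3 of the 20 genes, near its 18.1% of all genes tested, control replicate 2 in 18 (18.8% of all) and control replicate 3 in 16 (23.8% of all). Fdps, farnesyl diphosphate synthase, stood at 28.2, 67.8 and 75.7 CPM against 23.1, 29.1 and 15.5 CPM (-1.34 ± 0.38, adjusted p = 0.207). Msmo1, a methylsterol oxidase, stood at 56.3, 96.7 and 119 CPM against 42.1, 52.2 and 30.1 CPM (-1.13 ± 0.32, adjusted p = 0.207). Hsd17b7, a sterol ketoreductase, stood at 29.7, 70.9 and 63.5 CPM against 27.1, 29.6 and 16.9 CPM (-1.15 ± 0.35). Shiftwork replicate 3 was the lowest library in all 3. Hmgcs1, at the entry of the pathway and with the sterol element printed above, overlapped fully at 238, 560 and 324 CPM against 289, 420 and 239 CPM (-0.24 ± 0.35). Stard4, a sterol carrier, stood at 24.5, 20.4 and 30.0 CPM against 12.0, 12.9 and 15 CPM, without overlap (-0.91 ± 0.23, adjusted p = 0.195). Srebf2, the transcription factor that drives these genes, stood at 93.8, 78.1 and 113 CPM against 55.5, 58.6 and 80.2 CPM (-0.55 ± 0.18, adjusted p = 0.215).

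**Figure D4:**
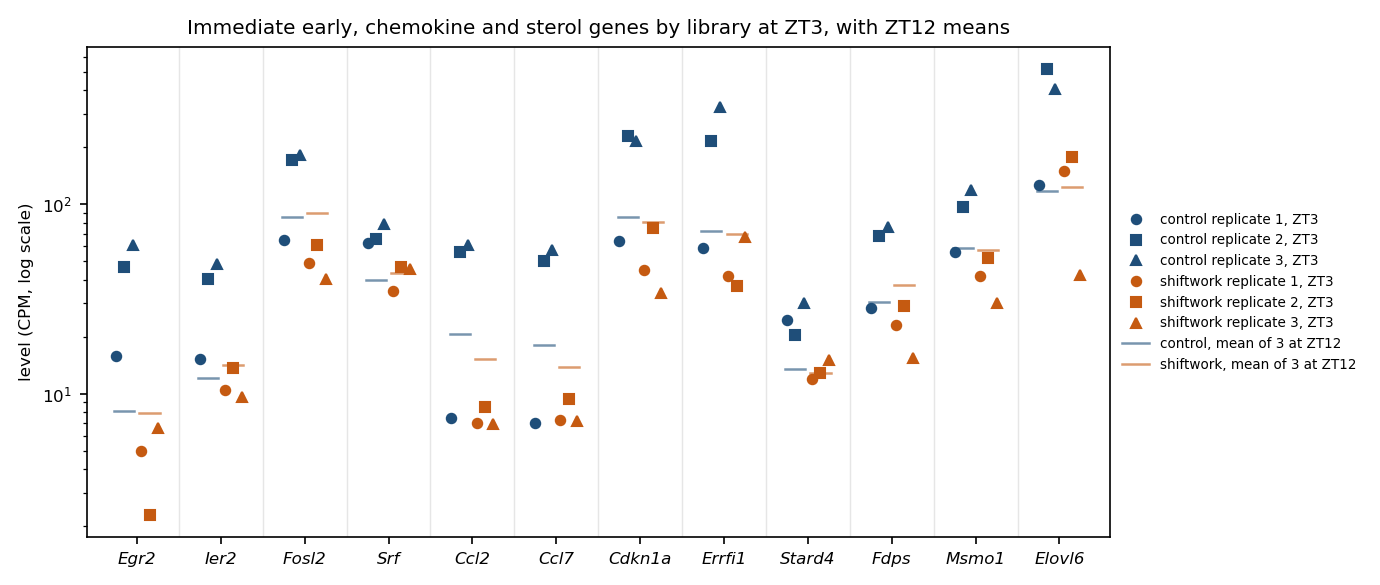
Level in CPM (log axis) of immediate early, chemokine and sterol genes by ZT3 library, with ZT12 means as lines. Control replicates 2 and 3 lie above the shiftwork libraries in each gene, while control replicate 1 lies near them in Ccl2 (7.44 CPM) and Ccl7 (7.01 CPM).

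Fatty acid and triglyceride synthesis genes stood lower in 20 of 22 cases (median -0.62), with no overlap in 0, against 4.33% of all genes tested. Of the lower genes 5 had an unadjusted p under 0.05, against 6.05% of all genes tested. The count of lower genes depended on shiftwork replicate 3. Without it 15 of 22 were lower and the median was -0.27, and without all 3 libraries 21 were lower and it was -0.70. Fasn, fatty acid synthase, stood at 6066, 23848 and 16428 CPM against 8530, 12686 and 1709 CPM. Elovl6, a fatty acid elongase, stood at 127, 517 and 405 CPM against 150, 178 and 42.4 CPM (-1.50 ± 0.55, adjusted p = 0.219). In both, control replicate 1 lay among the shiftwork libraries. Fads1, a fatty acid desaturase, stood at 322, 98.5 and 355 CPM against 104, 83.6 and 133 CPM, following the vas deferens markers, and its difference of -1.27 ± 0.38 was -0.09 without the 3 libraries. Lpin1, a phosphatidate phosphatase, was one of the 2 higher genes at 343, 608 and 365 CPM against 751, 834 and 519 CPM (0.68 ± 0.28).

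Of the 22 genes of adipocyte identity and insulin response, 15 stood higher and 7 lower, with 14 and 8 without the 3 libraries. In the fit without shiftwork replicate 3, 21 stood higher. The 22 genes summed to 42969, 71830 and 44760 CPM in controls and to 74157, 77700 and 24995 CPM in shiftwork. Adiponectin (Adipoq) stood at 1385, 2411 and 866 CPM against 3489, 3581 and 998 CPM (0.79 ± 0.49, adjusted p = 0.404). This sum and Adipoq were lower in the 3 libraries with vas deferens or spermatid RNA than in the other 3, and the part of that RNA in these results was not tested. Pik3r1, the regulatory subunit of PI3 kinase, had another order at 490, 840 and 1240 CPM against 422, 405 and 181 CPM, without overlap (-1.35 ± 0.37, adjusted p = 0.198). Irs2, an insulin receptor substrate, stood at 28.5, 23 and 18.4 CPM against 51.0, 54.0 and 32.0 CPM, without overlap in the other direction (0.97 ± 0.31, adjusted p = 0.214). Pik3r1 and Irs2 were the only genes of the list without overlap, 1 lower and 1 higher. Each is 4.55% of the list, against 4.33% lower and 7.64% higher over all genes tested. Aqp7, the glycerol channel of adipocytes, stood at 130, 154 and 78.3 CPM against 253, 230 and 133 CPM (0.76 ± 0.30). Dio2, which activates thyroid hormone, stood at 6.40, 18.7 and 9.96 CPM against 2.47, 4.52 and 2.36 CPM, without overlap (-1.91 ± 0.49, adjusted p = 0.195). Nuclear genes of oxidative phosphorylation stood lower in 29 of 36 cases with 0 at an unadjusted p under 0.05. Shiftwork replicate 3 was below every control in 35 of them (34.8% of all genes tested) and shiftwork replicate 2 above every control in 32 (29.5% of all). Their direction turned with the libraries, as 32 stood higher without shiftwork replicate 3, all 36 lower without control replicates 1 and 3, and 24 lower without all 3.

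Stress genes gave mixed results. Of 17 heat shock and cold-inducible genes, 11 stood lower, against 43.1% of all genes tested, and 12 stood lower without the 3 libraries. The 4 lower genes without overlap are 23.5% of the list, against 4.33% of all genes tested. Hspa1b, an inducible HSP70 gene nearly identical to Hspa1a so that reads may be split between them, stood at 23.3, 5.89 and 23 CPM against 5.13, 3.40 and 4.33 CPM. The co-chaperone Bag3 stood at 166, 94.1 and 148 CPM against 80.7, 86.9 and 63.2 CPM (-0.82 ± 0.19). In both, control replicates 1 and 3 were high, as for vas deferens markers, and the differences were -0.48 and -0.18 without the 3 libraries. Dnaja1, a partner of HSP70, stood at 53.0, 64.6 and 81.1 CPM against 46.8, 50.4 and 38.6 CPM (-0.55 ± 0.16) and was -0.42 without them. Of 19 endoplasmic reticulum stress genes, 10 stood higher and 9 lower. Leaving out the 3 libraries gave 6 higher and 13 lower, and without shiftwork replicate 3 alone 5 stood higher and 14 lower. Ddit3, which encodes CHOP, stood at 23.5, 26.7 and 31.8 CPM against 14.3, 22.4 and 20.0 CPM (-0.53 ± 0.18). Chac1, which degrades glutathione, stood at 2.68, 2.24 and 2.34 CPM against 4.37, 5.05 and 4.25 CPM (0.91 ± 0.31). These 2 did not overlap between groups, in opposite directions. Of 12 NRF2 targets, 9 stood lower, with 8 without the 3 libraries. The 4 without overlap were Nqo1 (-0.66 ± 0.22), Srxn1 (-0.51 ± 0.17), Txnrd1 (-0.35 ± 0.12) and Gclm (-0.22 ± 0.12), which serve redox balance. They are 33.3% of the list, against 4.33% of all genes tested. Txnrd1, thioredoxin reductase, stood at 105, 117 and 127 CPM against 84.9, 91.7 and 97.6 CPM.

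Antigen presentation and interferon genes stood higher by small amounts. All 7 MHC class II genes were higher, 4 without overlap (57.1%, against 7.64% of all genes tested). At an unadjusted p under 0.05 there were 5, against 12.8% of all genes tested. The list median was 0.51, or 0.21 with 6 higher both without shiftwork replicate 3 and without all 3 libraries. H2-Aa stood at 221, 228 and 233 CPM in controls and at 299, 256 and 460 CPM in shiftwork (0.57 ± 0.20, adjusted p = 0.218). H2-Ab1 stood at 129, 134 and 136 CPM against 168, 148 and 268 CPM (0.55 ± 0.20, adjusted p = 0.218). The controls lay close together and shiftwork replicate 3 was highest in all 7 genes. At ZT12 H2-Aa ranged from 525 to 576 CPM in controls and from 389 to 516 CPM in shiftwork. Of 24 interferon-stimulated genes 21 were higher, against 56.9% of all genes. No overlap was seen in 5 (20.8%, against 7.64% of all genes tested). An unadjusted p under 0.05 was reached by 3 of the 24, a share near that of all genes tested (12.8% higher at that p). Their median was 0.23, and 0.46 with 23 higher without the 3 libraries. Irf7, a transcription factor of the interferon response, stood at 17.1, 13.6 and 14.6 CPM against 23.5, 19.4 and 21 CPM (0.50 ± 0.14, adjusted p = 0.207). Ifit3, an antiviral gene with close paralogs, stood at 15.2, 12.4 and 9.76 CPM against 22.4, 25.4 and 12.3 CPM (0.68 ± 0.29). At ZT12 the median of the interferon list was -0.45. None of these genes was called by edgeR.

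Markers of B and plasma cells and of mast cells mostly stood lower in shiftwork. All 12 B and plasma cell genes stood lower in shiftwork, 3 without overlap (25%, against 4.33% of all genes tested), Jchain and Pou2af1 among them. At an unadjusted p under 0.05 there were 4, against 6.05% of all genes tested lower at that p, and 0 were called by edgeR. The 12 genes summed to 81.3, 91.3 and 300 CPM in controls and to 17.4, 15.4 and 57.6 CPM in shiftwork. The median difference was -1.44, and with all 12 lower it was -3.12 without shiftwork replicate 3 and -2.49 without the 3 libraries. Jchain, the joining chain of secreted IgM and IgA, stood at 36.9, 45.3 and 204 CPM against 7.12, 8.8 and 10.2 CPM (-3.45 ± 0.64, adjusted p = 0.17). Pou2af1, a B cell coactivator, stood at 5.99, 6.28 and 21.2 CPM against 1.14, 0.729 and 4.64 CPM (-2.36 ± 0.74). Control replicate 3 was the highest library in both. The 8 lymph node stroma genes, of which 6 are in the table, summed to 11.3, 9.69 and 17.2 CPM against 4.56, 3.50 and 11.2 CPM, also highest in control replicate 3, and their part in the result was not tested. Of the 8 mast cell genes 6 stood lower, 5 without overlap (62.5%, against 4.33% of all genes tested). Without the 3 libraries 6 stood lower as well (median -1.08, against -1.24). Tpsb2, a mast cell tryptase, stood at 15.6, 12.2 and 16.9 CPM against 5.51, 2.77 and 8.10 CPM (-1.45 ± 0.40, adjusted p = 0.201). Cma1, mast cell chymase, stood at 10.8, 8.91 and 10.4 CPM against 3.80, 2.19 and 4.6 CPM (-1.51 ± 0.42, adjusted p = 0.203). The proteases Cpa3 (-1.36 ± 0.47) and Mcpt4 (-1.12 ± 0.46) did not overlap either. Kit, the stem cell factor receptor that mast cells share with germ cells and other cells, stood higher at 24.4, 10.1 and 15 CPM against 28.0, 23.2 and 41 CPM (0.89 ± 0.34).

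Of 14 T and NK cell genes, 9 stood lower (median -0.25), and 11 without the 3 libraries (-0.35). Macrophage markers stood higher in 19 of 23 cases, against 56.9% of all genes tested, with a median of 0.29. The 3 without overlap are 13% of the list, against 7.64% of all genes tested. In the fit without the 3 libraries 11 stood higher and 12 lower, with a median of -0.01. Ccr2, the receptor for Ccl2 on monocytes, stood at 44.2, 43.1 and 29.6 CPM against 81.1, 49.0 and 109 CPM (1.03 ± 0.37, adjusted p = 0.219), without overlap. Cd63, a lysosomal tetraspanin, stood at 49.3, 51.2 and 47.9 CPM against 60.2, 61.5 and 60.0 CPM (0.29 ± 0.12). Endothelial genes stood higher in 11 of 12 cases, none without overlap. Shiftwork replicate 3 was below every control in 11 (34.8% of all genes tested) and shiftwork replicate 2 above every control in 11 (29.5% of all). All 12 stood higher without the 3 libraries (median 0.43, against 0.22), and 3 stood lower without control replicates 1 and 3. Cd34, shared by progenitors and endothelium, stood at 111, 105 and 127 CPM against 175, 173 and 136 CPM (0.50 ± 0.16, adjusted p = 0.214), without overlap.

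Results of other gene groups turned on the libraries that stood apart. All 12 smooth muscle genes stood lower, 10 at an unadjusted p under 0.05, against 6.05% of all genes tested. The list median of -3.38 was -0.10 without the 3 libraries. Desmin (Des) stood at 584, 25.9 and 565 CPM against 26.8, 30.0 and 38.6 CPM. Of 27 cell cycle genes 25 stood higher, with a median of 1.04 that was -0.06 without shiftwork replicate 3. The kinase Bub1 stood at 1.0, 1.12 and 1.46 CPM against 1.14, 1.21 and 52.0 CPM. Ube2c, a ubiquitin-conjugating enzyme of mitosis, was less tied to that library, at 3.63, 3.55 and 4.54 CPM against 5.98, 6.37 and 9.37 CPM (0.89 ± 0.29, adjusted p = 0.214). Usp2, a deubiquitinase listed among clock output genes, stood at 18, 23.1 and 20.8 CPM against 17.0, 20.5 and 243 CPM. Its difference of 2.18 ± 0.85 was thus that of shiftwork replicate 3, and it was -0.32 without the 3 libraries.

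**Figure D5:**
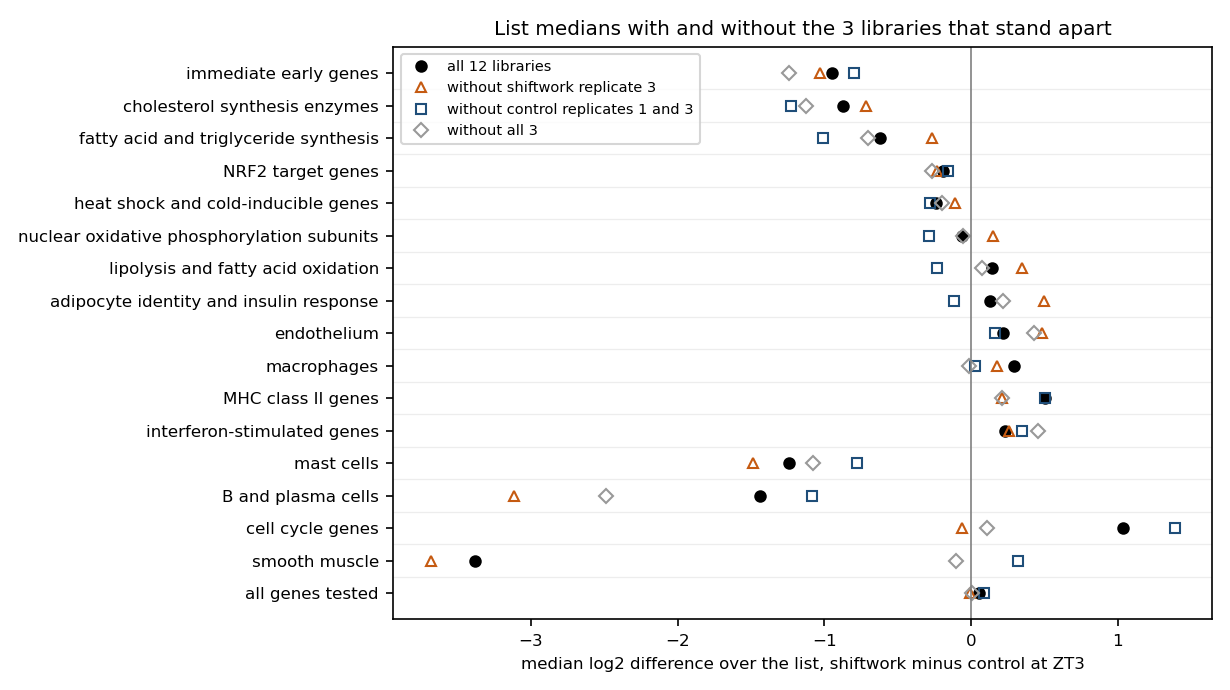
Median log2 difference (shiftwork minus control at ZT3) of 16 gene lists and of all genes tested, in all 12 epididymal libraries and without the libraries that stood apart. Immediate early and cholesterol synthesis genes stay below -0.7 in all 4 fits. All 4 fits keep control replicate 2, which held high values of both lists. Those without control replicates 1 and 3 have no other ZT3 control, so the fits cannot tell whether these medians hold without it. The smooth muscle median moves from -3.38 to -0.10 and the cell cycle median from 1.04 to 0.11 without the 3 libraries.

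The same contrast at ZT12 rests on other libraries, and its values stand beside those of ZT3 here. The median shiftwork difference at ZT12 was 0.08 for immediate early genes, 0.14 for cholesterol synthesis, -0.20 for clock repressors and 1.10 for mast cell genes. Whether the shiftwork difference itself changed with time was tested as an interaction. It called 0 of 15141 genes (0.0%) by edgeR, with 1535 (10.1%) at an unadjusted p under 0.05, and DESeq2 called 192. Leaving out control replicate 2 gave 186 edgeR calls, shiftwork replicate 3 gave 15 and control replicate 1 gave 1 (Egr1). Without the 3 libraries there were 7, namely Angptl2, Arc, Dbp, Egr1, Per3, Tef and Tspan4. The 5 genes with the smallest p were Cth, Fyn, Rhoj, Peg3 and H2-Q4, each at an adjusted p of 0.372. Cth ranged from 9.50 to 11.5 CPM in ZT12 controls and from 11.9 to 16.5 CPM in ZT12 shiftwork, and Fyn from 41.7 to 47.9 CPM and from 40.3 to 43.0 CPM. In these 2 genes the ZT3 shiftwork levels lay in or near the range of the ZT12 libraries and the ZT3 controls lay apart. H2-Q4, an MHC class I gene with near-identical copies, ranged from 87.4 to 92.4 CPM in ZT12 controls and from 64.9 to 72.8 CPM in ZT12 shiftwork. The mast cell protease Tpsb2 ranged from 3.66 to 7.52 CPM in ZT12 controls and from 8.56 to 13.3 CPM in ZT12 shiftwork, the order opposite to that at ZT3.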

How the data were processed

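The authors deposited whole-number read counts per gene for the 12 epididymal libraries (24091 gene symbols), and log2 FPKM values of the same libraries, in which the lowest value is -3.32. Per the labels, RNA was purified with DNase treatment, made into mRNA libraries and sequenced as single reads of 51 cycles. Tools listed in the submitters' processing notes, with no roles or versions, are edgeR, limma, DESeq2, HTSeq and STAR, and the builds listed are GRCm38 and mm10. The strand used for counting is not given in the sources used here, so overlapping and antisense genes cannot be told apart, and reads of near-identical copies may go to either. Mitochondrially encoded genes were not analysed here, and the inguinal libraries were not used here. Values of some genes are not reported here.

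The test was edgeR 4.0.16 under R 4.3.3 (robust quasi-likelihood, TMM, filterByExpr with minimum count 10 and minimum total 15), with 12 libraries in 4 groups. Calls used a Benjamini-Hochberg adjusted p under 0.05 over 15141 genes. SE was computed as the absolute log2 difference divided by the root of F. DESeq2 1.42.0, limma 3.58.1 on log2 FPKM, RLE scaling, no filter, only the ZT3 libraries, a replicate block, 2 marker covariates and left-out libraries were alternatives. Floors of 3 reads cover counting error only.

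The members, the 39 gene lists (645 genes) and the tests were chosen with earlier results of these data known. Lists are described by counts and medians beside those of all genes. Named genes were all clock activators, repressors and D-box factors, from each other list at most 3 members, those of smallest p, the 10 higher and 10 lower genes with the smallest p, and the 8 and 8 with small spread. The last 2 kinds required a mean logCPM of 1 or more without overlap of the ZT3 groups, and left out predicted genes, Riken clones and immunoglobulin segments. The small spread meant a highest library under 2 times the lowest (CPM + 0.5) within each group. The interaction named the 5 genes with the smallest p. Gene positions came from the deposited count table, and promoter sequences from RefSeq.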

Additional observations from a re-analysis of the deposited data

How the results depend on the processing

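Calls at ZT3 depended on the tool and on single libraries. The count was 0 in edgeR with RLE factors, with no filter (20982 genes), in the ZT3 libraries alone, with marker covariates, without the 2 libraries with vas deferens transcripts, and in limma. It was 662 with DESeq2 and 9 without control replicates 1 and 3 and shiftwork replicate 3, and it ranged from 0 to 403 when 1 library was left out. The interaction gave 192 calls with DESeq2, 7 without the 3 libraries and 0 to 186 with 1 library left out, and it cannot be fitted to the ZT3 libraries alone. Same-numbered ZT3 libraries correlated in their deviations at -0.106, 0.172 and 0.0353, and differently numbered ones at -0.202 to 0.165. These values cannot tell whether the numbers pair libraries, since the transcripts that set 3 libraries apart enter the deviations. With the replicate block 0 genes were called in both tests (unadjusted p under 0.05 in 1805 and 1187, against 2847 and 1535). Of 105 named genes recomputed, 92 kept their direction under all 21 alternatives. Without the 3 libraries, Per1 moved from 0.17 to -0.18, Cry1 from 0.14 to -0.78, Prm2 from 6.97 to -3.45, Des from -3.62 to 0.12 and Arc from 1.14 to -4.68. Without the 2 libraries, Per1 was -0.13, Cry1 -0.34, Fads1 0.079 and Des 0.26. With marker covariates, Per1 was -0.14, Cry1 -0.51, Fads1 0.36, Prm2 -0.97, Mylk 0.25, Des 0.93, Acta2 0.17 and Arc -2.79. With 1 library left out, Rora (-0.03) ranged from -0.24 to 0.16, Per1 from -0.10 to 0.33, Cry1 from -0.33 to 0.40, Nr1d1 (0.14) from -0.13 to 0.42, Hlf (0.27) from -0.13 to 0.76, Prm2 from -2.08 to 8.76, Bub1 (3.92) from -0.013 to 4.49, Arc from -3.77 to 1.93 and Hmgcs1 (-0.24) from -0.50 to 0.15. In limma on log2 FPKM, Arc was -0.56. The cause was not tested.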
